A study of Mus musculus with 6 samples.

Results

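RAW264.7 cells that received LPS together with Sal-B were compared with untreated control cells, to describe which parts of the LPS response were still present under Sal-B and which transcripts of the untreated state were missing. RAW264.7 is an established mouse macrophage-like line from a tumour induced by Abelson leukaemia virus. The cells of the first group were given lipopolysaccharide (LPS, a component of the outer membrane of Gram-negative bacteria) at 10 ng/ml plus Sal-B at 50 μmol/L, and the control cells were given neither. The comparison uses 4 of the 6 libraries analysed, chosen by their group labels: replicates 2 and 3 of LPS plus Sal-B and replicates 2 and 3 of control. The other 2 libraries, replicates 2 and 3 of LPS at the same dose alone, are set between them where their level helps to place a gene. Cells with Sal-B alone were not among the groups, so a difference from control cannot be divided between the 2 agents. How long the cells were treated and what Sal-B stands for are not given in the sources used here, nor whether the replicates came from separate cultures. The p-values therefore reflect the spread of these libraries alone, which may be technical.

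LPS is handed by Cd14 to the receptor complex of Tlr4 and Ly96 on macrophages. Through the adaptors Myd88 and Ticam1 the complex switches on NF-kB, AP-1 and interferon regulatory factors, which raise cytokine, chemokine and antiviral genes as well as the inhibitors that shut the pathway down. Macrophages answering LPS are also known to leave the cell cycle and to change their surface receptors, lysosomes and metabolism.

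The level of 10780 protein-coding genes was given as FPKM, which divides fragments by gene length and by the size of the library. Of these, 10014 reached 1 FPKM in at least 2 of the 6 libraries and were tested. The libraries held 8639 to 9847 genes at 1 FPKM or more, and read depth is not given in the table. The median FPKM of the genes tested was 4.36 and 4.47 in the LPS plus Sal-B libraries, 5.28 and 5.21 in the LPS libraries and 7.57 and 7.35 in the control libraries. A gene with no change in its rank would therefore read lower in LPS plus Sal-B cells, so each gene was tested on the values as deposited and again after all libraries were scaled to the same median. The control pair was the least alike, with 329 genes more than 2-fold apart against 65 in the LPS plus Sal-B pair and 123 in the LPS pair. Control replicate 2 read above control replicate 3 for many inflammatory genes, and values without 1 of them are given where they matter. Of 10 macrophage markers 9 were listed, with Mrc1 missing from the table, and their summed level as deposited was 713 and 725 FPKM in LPS plus Sal-B, 1549 and 1551 in LPS, and 1454 and 1927 in control libraries. Cd68 and Lyz2 made up most of each sum, and Lyz2 read 670.5 and 309.9 FPKM in the control libraries. Itgam read 26.5 and 25.9 FPKM in LPS plus Sal-B and 25.5 and 25.1 in control libraries. Cd14 overlapped control, and the other listed markers were below control as deposited. Scaling to the same median multiplied LPS plus Sal-B values by 1.31 and 1.28 and control values by 0.754 and 0.776. Markers near control as deposited, such as Spi1 (43.5 and 46 against 68.4 and 52.2 FPKM), thus need not be lower after it. At the same median Cd14 was above control (log2 fold change 0.99), and Csf1r and Lyz2 were below it (−1.36 and −2.12). None of the 5 markers each of T cells, B cells, fibroblasts, epithelial cells and neutrophils was listed. In bulk RNA, fewer cells with a transcript and less of it per cell cannot be told apart.

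Most genes differed between LPS plus Sal-B cells and control cells. As deposited, 1399 of 10014 genes were higher (14%) and 5890 lower (58.8%) in limma's moderated test on log2(FPKM + 1), at a Benjamini-Hochberg adjusted p under 0.05. At the same median 3179 were higher (31.7%) and 3207 lower (32%). Over all genes tested the log2 fold change had a median of −0.63 on the deposited values and −0.02 after scaling. Fold changes are differences of log2(FPKM + 1) as deposited, given with their standard error, and they understate the change of genes near 0. A gene called in the same direction on both scales is said below to have risen or fallen, and this held for 1399 genes that rose (14%) and 3207 that fell (32%). The scaling raised LPS plus Sal-B values against control values. All 1399 genes called higher as deposited stayed so at the same median, and all 3207 called lower there were lower as deposited. A rise thus rests on the deposited values and a fall on the scaled ones, and the other scale is no further check. At least 2-fold and called, 543 genes were higher and 3224 lower as deposited, against 1468 and 1200 at the same median. With each treated pair averaged to 1 sample, 578 were higher and 3435 lower. The share called in either direction was 72.8% as deposited, 63.8% at the same median and 46% on both scales, so a call by itself says little about a gene. For each gene list below, counts and medians of the log2 fold change are given first as deposited and then at the same median. The shares of all genes to set beside these counts are 14% higher and 58.8% lower as deposited, and 31.7% and 32% at the same median. A list near these shares does not stand out from all genes. The filter admitted genes through any group, so a gene near 0 in 1 group could hardly be called in more than 1 direction. Counts and medians of lists with such genes lean that way.

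**Figure D1:**
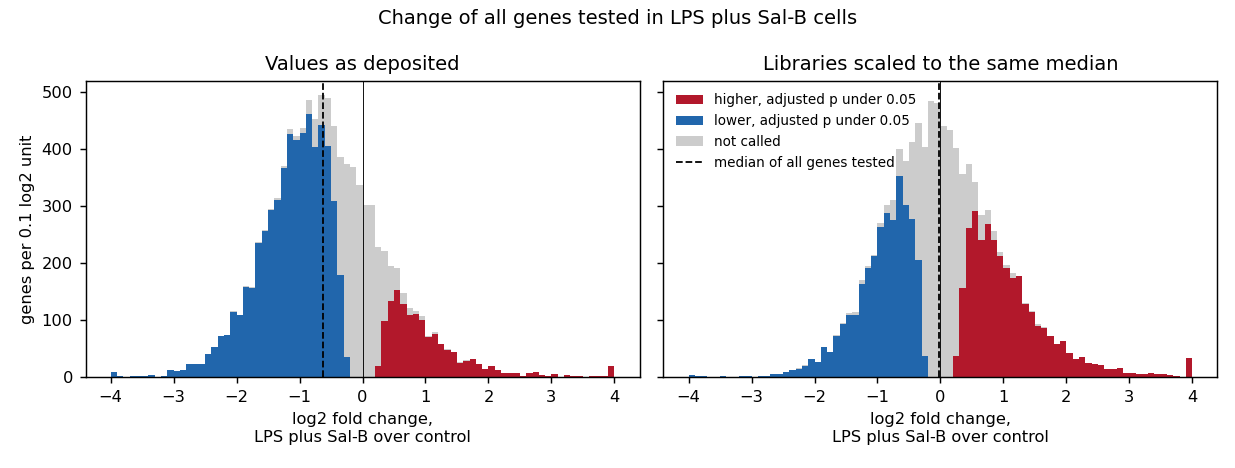
Number of genes tested (y axis) by log2 fold change of LPS plus Sal-B over control (x axis), on the values as deposited at left and at the same median at right, with genes called higher in red, genes called lower in blue, genes not called in grey and changes beyond the axis in its outermost bars. The dashed line marks the median of all genes, −0.63 at left and −0.02 at right, and the scaling moves the whole distribution.

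The 12 largest rises included the secreted mediators Ccl22, Csf3 and Ccl5. Ccl22, a chemokine that attracts T cells bearing Ccr4, read 342 and 356 FPKM in LPS plus Sal-B cells, 536 and 527 in LPS cells and 0.916 and 2.23 in control cells, a log2 fold change over control of 7.14 ± 0.24 (SE, limma adjusted p = 7.05e-05) as deposited and 7.72 at the same median. Csf3, the growth factor of granulocytes, read 182 and 191 FPKM in LPS plus Sal-B cells, 434 and 433 in LPS cells and 0.466 and 0.613 in control cells (log2 fold change 6.93 ± 0.09, adjusted p = 8.9e-06, and 7.42 at the same median). Ccl5, which draws T cells and monocytes, read 786 and 809 FPKM in LPS plus Sal-B cells, 2591 and 2689 in LPS cells and 11.9 and 10.9 in control cells (log2 fold change 6.01 ± 0.08, adjusted p = 8.9e-06, and 6.73). In all 3 genes both treated groups stood far above the control cells. Absence of overlap between LPS plus Sal-B and control libraries was a condition for the 12 largest rises and is no result. Non-overlap by itself was common, since 87.1% of genes did not overlap between LPS plus Sal-B and control libraries as deposited and 83.1% at the same median.

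Ptgs2, the inducible cyclooxygenase that makes prostaglandins, read 458 and 466 FPKM in LPS plus Sal-B cells, 667 and 652 in LPS cells and 8.08 and 4.41 in control cells. Its log2 fold change over control was 6.04 ± 0.24 as deposited (adjusted p = 7.81e-05) and 6.74 at the same median. Csf2, which encodes the cytokine GM-CSF, read 44.5 and 45.1 FPKM in LPS plus Sal-B cells, 310.2 and 304 in LPS cells and 1.15 and 0.562 in control cells (log2 fold change 4.64 ± 0.16, adjusted p = 7.05e-05). Csf2 was thus far above control but well short of its level with LPS alone. Mmp9, a secreted gelatinase, and Lif, a cytokine that signals through gp130, read much alike in both treated groups. Mmp9 read 47.9 and 49.4 FPKM in LPS plus Sal-B cells, 50.7 and 48.9 in LPS cells and 0.787 and 0.842 in control cells. Lif read 29.3 and 29.2 FPKM in LPS plus Sal-B cells, 29.9 and 28.9 in LPS cells and 0.136 and 0.103 in control cells. Phlda1, which encodes a pleckstrin homology-like domain protein, read 119 and 114 FPKM in LPS plus Sal-B cells, 98.3 and 105 in LPS cells and 2.42 and 1.27 in control cells (log2 fold change 5.40 ± 0.20, adjusted p = 7.52e-05).

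Cxcl2, a chemokine that attracts neutrophils, and Lcn2, a protein that withholds iron from bacteria, also rose, but their control libraries disagreed. Cxcl2 read 164 and 169 FPKM in LPS plus Sal-B cells, 861 and 872 in LPS cells and 12 and 1.18 in control cells (log2 fold change 4.97 ± 0.78, adjusted p = 0.00228, and 5.62 at the same median). Without control replicate 2 its log2 fold change was 6.26, and without control replicate 3 it was 3.68. Lcn2 read 155 and 164 FPKM in LPS plus Sal-B cells, 569 and 415 in LPS cells and 14.1 and 1.63 in control cells (log2 fold change 4.67 ± 0.78, adjusted p = 0.00284), or 5.93 and 3.41 without the one or the other control library. Both genes were above control either way, as the rule against overlap required.

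The 12 largest rises stood differently to their level with LPS alone. The contrast between the 2 treated groups shares the LPS plus Sal-B libraries with the comparison with control, and in it 42.3% of all genes were called as deposited (10.5% higher and 31.8% lower) and 37.8% at the same median (17.6% and 20.2%). Csf3, Ccl5 and Csf2 were lower in LPS plus Sal-B than in LPS cells on both scales, with log2 differences of −1.21, −1.73 and −2.75 as deposited (limma, adjusted p = 0.00164, 0.000948 and 0.00128). Hspa1a and Hspa1b were higher than in LPS cells on both scales. The difference did not pass for Ccl22, Ptgs2, Phlda1, Cxcl2, Mmp9, Lif and Lcn2, with adjusted p from 0.0568 (Cxcl2) to 0.96 (Lif) as deposited. For Cxcl2 that difference was −2.37, with an error set largely by the control pair, which enters the fit of all 3 groups. The control pairs of Ccl22, Ptgs2 and Lcn2 were also further apart on the log2 scale than their treated pairs. These genes stood at 65.6%, 70.1% and 32.4% of their LPS mean, so a difference that did not pass does not show equal levels.

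**Figure D2:**
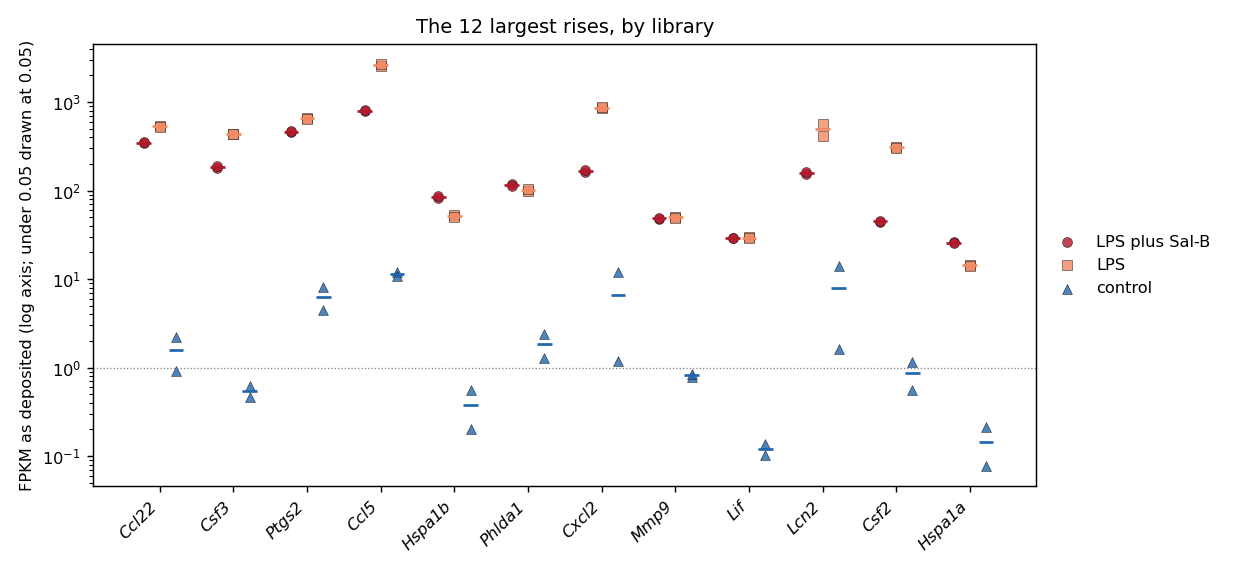
FPKM as deposited on a log axis for the 12 genes with the largest rises that passed on both scales, with the 2 LPS plus Sal-B libraries as circles, the LPS libraries as squares, the control libraries as triangles and each mean as a bar. All circles lie above all triangles by the rule that chose the genes. Csf2 lies well below its LPS level and Hspa1a and Hspa1b lie above it.

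A set of 13 genes stood under 1 FPKM in both control libraries and at 10 FPKM or more in both LPS plus Sal-B libraries: Csf3, Hspa1b, Mmp9, Il27, Lif, Hspa1a, Il1a, Il1b, Ccl2, Ccl17, Gipr, Lta and Zbp1. All 13 met the same levels at the same median, where 17 genes did in all, and 21 genes did as deposited without control replicate 2. Il27, a subunit of the cytokine interleukin-27, read 31.4 and 31.2 FPKM in LPS plus Sal-B cells, 63.3 and 62.5 in LPS cells and 0.377 and 0.818 in control cells. The interleukin-1 genes Il1a and Il1b, whose products start fever and recruit leukocytes, reached 9.37% and 13% of their LPS mean. Il1a read 18.9 and 19.1 FPKM in LPS plus Sal-B cells, 205 and 201 in LPS cells and 0.654 and 0.588 in control cells. Il1b read 19.8 and 18.2 FPKM in LPS plus Sal-B cells, 145 and 146 in LPS cells and 0.0596 and 0 in control cells. Ccl2, which draws monocytes, read 15.6 and 16.5 FPKM in LPS plus Sal-B cells, 325 and 328 in LPS cells and 0.616 and 0.384 in control cells. Ccl17, a further chemokine for Ccr4, was listed at 0 in both control libraries and read 14.8 and 12.2 FPKM in LPS plus Sal-B cells and 21.8 and 24.7 in LPS cells. Lta, which encodes lymphotoxin, read 11.1 and 11.4 FPKM in LPS plus Sal-B, 19.3 and 18.4 in LPS and 0.856 and 0.269 in control cells, and Zbp1, a sensor of Z-form nucleic acids, read 10.7 and 10.8 FPKM in LPS plus Sal-B, 20.2 and 20.4 in LPS and 0.471 and 0.0425 in control cells. Gipr, the receptor of a gut hormone, stood furthest above LPS cells of the 13. It read 12.4 and 12.3 FPKM in LPS plus Sal-B cells, 2.17 and 2.29 in LPS cells and 0.339 and 0.994 in control cells. Only Gipr, Hspa1a and Hspa1b were called higher than in LPS cells. Mmp9 and Lif were not called in that contrast, and the rest of the 13 were called lower as deposited. Some of the 13 are neighbours in the genome (GRCm38, as deposited): Il1a at chr2:129299610-129309972 and Il1b at chr2:129364570-129371139, Ccl17 at chr8:94810453-94812036 beside Ccl22 at chr8:94745590-94751699, and Hspa1a at chr17:34969190-34972156 and Hspa1b at chr17:34956436-34959238. The contrast between treated groups for Gipr was 2.05 as deposited (limma, adjusted p = 0.00217) and 2.31 at the same median.

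Toll-like receptors, at the entry of the pathway, fell in 6 of 12 cases and rose in none on both scales. Of the 12 Toll-like receptors and co-receptors, 0 were higher and 7 lower than control as deposited, and 3 and 6 at the same median, against 14% and 58.8% of all genes as deposited and 31.7% and 32% at the same median. The list had a median log2 fold change of −1.67 on deposited and −1.14 on scaled values, the lowest of the 42 lists on both scales. Tlr9 and Tlr13 were under 1 FPKM in all treated libraries and passed the filter only through control libraries. They could hardly be called higher. Tlr4 itself read 0.271 and 0.217 FPKM in LPS plus Sal-B cells, 0.782 and 1.14 in LPS cells and 1.19 and 6.6 in control cells. Its log2 fold change of −1.72 ± 0.55 passed as deposited (adjusted p = 0.0336) but not at the same median (−1.38, adjusted p = 0.0646). Tlr4 depended on the control libraries, with −2.61 without control replicate 2 and −0.82 without control replicate 3, and its adjusted p was 0.064 to 0.11 without any 1 of the treated libraries. Cd14 read 137 and 143 FPKM in LPS plus Sal-B cells, 300.3 and 292 in LPS cells and 144 and 97.8 in control cells, a difference from control that did not pass as deposited (0.24 ± 0.18, adjusted p = 0.281) and passed at the same median (0.99, adjusted p = 0.00401). As deposited the log2 fold change of Cd14 was 0.51 without control replicate 2 and −0.04 without control replicate 3. Ly96 read 20.2 and 20.7 FPKM in LPS plus Sal-B cells, 23.8 and 23.3 in LPS cells and 17.8 and 22.1 in control cells, with 0.04 ± 0.12 as deposited and 0.76 at the same median (adjusted p = 0.772 and 0.0034), and it too changed sign as deposited with the control library used (−0.11 without replicate 2, 0.19 without replicate 3). Ly96 and the adaptor Myd88 are given although the rule for named genes did not take them.

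The 6 that fell on both scales were Tlr2, Tlr6, Tlr7, Tlr9, Tlr13 and Cd180. Tlr7, the endosomal sensor of single-stranded RNA, read 0.837 and 0.557 FPKM in LPS plus Sal-B cells, 1.59 and 2.16 in LPS cells and 40.8 and 38.7 in control cells (log2 fold change −4.59 ± 0.15, limma adjusted p = 6.98e-05, and −4.05 at the same median). Tlr13, a sensor of bacterial ribosomal RNA, read 0.166 and 0.0757 FPKM in LPS plus Sal-B cells, 0.583 and 0.378 in LPS cells and 14.6 and 14.6 in control cells (log2 fold change −3.80 ± 0.12, adjusted p = 6.29e-05). Both were near the floor of the table in LPS plus Sal-B cells. Tlr9, the sensor of unmethylated DNA, was listed at 0 in both LPS plus Sal-B libraries and read 0.141 and 0.333 FPKM in LPS and 2.77 and 3.32 in control libraries. Cd180, a surface relative of the Toll-like receptors, fell (log2 fold change −1.63 ± 0.08) to 10.6 and 10.5 FPKM in LPS plus Sal-B cells, against 34.5 and 34.8 in control cells. Tlr6, a partner of Tlr2 that was chosen after its values were seen, read 0.442 and 0.404 FPKM in LPS plus Sal-B cells, 1.02 and 1.29 in LPS cells and 3.67 and 4.82 in control cells. Tlr2, the receptor of bacterial lipoproteins, which was chosen after its values were seen, read 5.92 and 6 FPKM in LPS plus Sal-B cells, 12 and 13.3 in LPS cells and 39.1 and 28.8 in control cells, and was lower than both other groups on both scales (limma, adjusted p = 0.000147 against control and 0.00739 against LPS as deposited).

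Adaptors and kinases of the pathway were mixed, with 4 that rose and 4 that fell on both scales. The members given here all read below control, and values of those that rose are not reported here. Of 17 tested, 4 were higher and 9 lower as deposited, 4 and 4 at the same median. Their median was −0.69 on deposited and −0.06 on scaled values, close to that of all genes. Myd88 read 6.25 and 6.2 FPKM in LPS plus Sal-B cells, against 16.5 and 11.1 FPKM in control cells (log2 fold change −1.01 ± 0.18, adjusted p = 0.00373, and −0.33 at the same median, adjusted p = 0.133). Tbk1, the kinase that activates interferon regulatory factors, fell to 6.55 and 6.32 FPKM in LPS plus Sal-B cells, against 17.1 and 18.5 in control cells (log2 fold change −1.34 ± 0.09, adjusted p = 0.000143). Traf6, the ubiquitin ligase that relays the Myd88 signal, read 2.01 and 2.03 FPKM in LPS plus Sal-B cells, against 7.06 and 7.74 in control cells. Irak4, the first kinase of that branch, read 1.03 and 1.17 FPKM in LPS plus Sal-B cells, against 3.98 and 4.99 in control cells. Both fell on both scales.

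In the list of NF-kB subunits and feedback regulators more genes were called higher than lower. Of 20 tested, 9 were higher and 3 lower as deposited, and 14 and 1 at the same median, with a median log2 fold change of 0.43 and 1.02. Those higher made up 45% and 70%, against 14% and 31.7% of all genes. The members given here are regulators, and values of the subunits are not reported here. Nfkbia, the inhibitor IkB alpha that NF-kB itself induces, read 911 and 899 FPKM in LPS plus Sal-B cells, 375 and 366 in LPS cells and 79.3 and 51.5 in control cells. Its change over control was 3.80 ± 0.20 (limma, adjusted p = 0.000103), and it also exceeded the LPS level, by 1.29 as deposited (adjusted p = 0.00628) and 1.53 at the same median. Gadd45b, a stress-induced regulator of kinase signalling, read 49 and 51.3 FPKM in LPS plus Sal-B cells, 105 and 105 in LPS cells and 5.9 and 5.22 in control cells, or 47.8% of its LPS mean. Nfkbiz, a nuclear IkB protein, and Zc3h12a, a ribonuclease that degrades cytokine transcripts, rose by 2.20 ± 0.11 and 1.85 ± 0.12 on the log2 scale. Nfkbia and Gadd45b thus stood on opposite sides of their level in LPS cells.

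The promoters of Cxcl2 and Nfkbia are shown as examples of the letters that NF-kB is known to bind, because these genes are an outlet and a brake of the pathway that both stood high. They come from RefSeq on GRCm38.p6, run from 250 bases before the annotated start up to it, and lie at chr5:90903649-90903898 on the plus strand and chr12:55492648-55492897 on the minus strand. Each is written 5′ to 3′ in the direction of transcription, and capitals mark matches to GGNNTTTCC on either strand.
Cxcl2: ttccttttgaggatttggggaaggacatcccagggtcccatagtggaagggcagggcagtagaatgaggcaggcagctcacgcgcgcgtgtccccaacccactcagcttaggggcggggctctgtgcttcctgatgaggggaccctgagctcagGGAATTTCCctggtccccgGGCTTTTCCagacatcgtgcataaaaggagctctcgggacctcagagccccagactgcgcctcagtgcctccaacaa
Nfkbia: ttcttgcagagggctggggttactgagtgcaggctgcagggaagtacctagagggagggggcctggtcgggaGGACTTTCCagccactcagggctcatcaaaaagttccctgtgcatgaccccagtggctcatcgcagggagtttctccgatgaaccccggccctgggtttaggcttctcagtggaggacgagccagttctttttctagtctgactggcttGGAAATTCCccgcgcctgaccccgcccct
The Cxcl2 matches begin 96 and 77 bases before the start, and those of Nfkbia begin 178 and 29 bases before it, the nearer one on the other strand. A promoter of 300 bases (250 before and 50 after the start) was found for 7884 of the 10014 genes tested, and 6.25% of these held the motif. It occurred in 3 of 9 chemokine promoters and 4 of 15 promoters of the cytokine list, and in 6.3% of promoters of all genes that rose. These letters were settled on after looser and stricter forms had been tried. A match is a run of letters and not a measured site.

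Chemokines had the highest median of the 42 lists on both scales. Ccl2, Ccl7, Ccl12, Ccl17 and Cxcl10 were under 1 FPKM in both control libraries and passed the filter only through treated libraries. Such members could hardly be called lower, which favours a high count and median. Of 14 tested, 11 were higher and 1 lower as deposited (12 and 0 at the same median), with a median log2 fold change of 2.43 and 3.04. Against LPS cells, 9 of the 14 were lower and 0 higher as deposited, and 7 and 0 at the same median. The macrophage inflammatory proteins Ccl3 and Ccl4 and the chemokine Ccl9 were chosen after their values were seen, and Ccl3 had the highest FPKM of the list. Ccl3 read 12710 and 12220 FPKM in LPS plus Sal-B cells, 26600 and 27850 in LPS cells and 1216 and 541 in control cells (log2 fold change 3.94 ± 0.36, adjusted p = 0.00033). Ccl4 read 421 and 441 FPKM in LPS plus Sal-B cells, 1022 and 1031 in LPS cells and 112 and 41.7 in control cells. Ccl9 read 509.7 and 526 FPKM in LPS plus Sal-B cells, 836 and 819.5 in LPS cells and 157 and 116 in control cells. These 3 lie with Ccl5 on chromosome 11, from Ccl5 at chr11:83525778-83530518 to Ccl4 at chr11:83662584-83664683, and Ccl2 lies on the same chromosome at chr11:82035571-82037453. Ccl7 and Ccl12, relatives and neighbours of Ccl2 that were also chosen after their values were seen, stood near the floor: Ccl7 read 1.17 and 1.26 FPKM in LPS plus Sal-B cells, 33.7 and 33.1 in LPS cells and 0.141 and 0 in control cells, and Ccl12 was listed at 0 in both control libraries and read 1.46 and 1.48 FPKM in LPS plus Sal-B and 9.27 and 9.25 in LPS libraries. Cxcl10, an interferon-induced chemokine for T cells, read 6.51 and 6.33 FPKM in LPS plus Sal-B cells, 10.9 and 11.7 in LPS cells and 0.872 and 0.325 in control cells (log2 fold change 2.24 ± 0.18, adjusted p = 0.000218).

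Cytokines and growth factors had 16 of 23 genes higher and 2 lower as deposited, 19 and 1 at the same median, and medians of 1.15 and 1.87. Csf3, Lif, Il1a and Il1b passed the filter only through treated libraries, which again favours a high count and median. Against LPS cells 17 of them were lower as deposited and 15 at the same median. Tnf, the early cytokine of the LPS response, read 85.1 and 87 FPKM in LPS plus Sal-B cells, 343 and 350.2 in LPS cells and 26.9 and 12.1 in control cells (log2 fold change 2.19 ± 0.34, limma adjusted p = 0.0021, and 2.92 at the same median). Il6, a cytokine of fever and the acute phase, read 0.91 and 0.921 FPKM in LPS plus Sal-B cells, 9.71 and 13.3 in LPS cells and 0 and 0.123 in control cells. Its difference from control passed (0.85 ± 0.16, adjusted p = 0.00494), but the level stayed under 1 FPKM. Tgfb1, an anti-inflammatory growth factor, and Tnfsf9, a costimulatory ligand, were chosen after their values were seen. Tgfb1 read 92.3 and 94.3 FPKM in LPS plus Sal-B cells, 66 and 64.6 in LPS cells and 27.6 and 18.1 in control cells. Tnfsf9 read 145 and 160.4 FPKM in LPS plus Sal-B cells, 157 and 143 in LPS cells and 39.4 and 34.4 in control cells. Both rose, and neither was called lower than in LPS cells. Il15, a growth factor of natural killer cells chosen in the same way, was the member that fell on both scales, at 1.26 and 0.902 FPKM in LPS plus Sal-B cells, against 3.14 and 5.15 in control cells.

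Inflammatory and antibacterial effectors had 13 of 19 higher and 3 lower on each scale, and medians of 2.08 as deposited and 2.51 at the same median. Nos2, the inducible nitric oxide synthase, read 125 and 127 FPKM in LPS plus Sal-B cells, 101 and 97.1 in LPS cells and 8.25 and 9.36 in control cells (log2 fold change 3.70 ± 0.09, adjusted p = 4.31e-05). It was above its LPS level by 0.35 as deposited (adjusted p = 0.0303) and 0.59 at the same median. Acod1, the enzyme behind the antibacterial metabolite itaconate, read 241 and 245 FPKM in LPS plus Sal-B cells, 401 and 398 in LPS cells and 35.9 and 4.53 in control cells (log2 fold change 4.09 ± 0.83, adjusted p = 0.00609), or 5.46 without control replicate 2 and 2.72 without control replicate 3. Saa3, an acute-phase apolipoprotein, read 17.3 and 18.5 FPKM in LPS plus Sal-B cells, 49.3 and 52.4 in LPS cells and 1.6 and 1.01 in control cells. Slpi, an inhibitor of neutrophil proteases chosen after its values were seen, read 404 and 417 FPKM in LPS plus Sal-B cells, 693 and 697 in LPS cells and 58.4 and 39.3 in control cells. The 3 members that fell were also taken from the values: Lyz2, Lyz1 and Plau. Lyz2, the lysozyme of macrophages, read 61.6 and 61.2 FPKM in LPS plus Sal-B cells, 191 and 186 in LPS cells and 670.5 and 309.9 in control cells (log2 fold change −2.87 ± 0.34, adjusted p = 0.000797). The urokinase gene Plau read 17.1 and 17 FPKM in LPS plus Sal-B cells, 61.9 and 61.4 in LPS cells and 126 and 86.4 in control cells. Lyz1 and Lyz2 are close copies, and whether fragments were shared between them was not tested. The log2 fold change of Lyz1 was −1.86 ± 0.40, or −1.21 without control replicate 2 and −2.50 without control replicate 3.

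Interferon-stimulated genes rose in 31 of 39 cases on both scales and fell in none. As counted on each scale, 31 were higher and 2 lower as deposited, and 34 and 0 at the same median, with medians of 1.34 and 2.00. Compared with LPS cells 20 were lower and 2 higher as deposited, 15 and 5 at the same median. Irf7, the factor that amplifies the interferon response, read 39.5 and 42.4 FPKM in LPS plus Sal-B cells, 76.3 and 73 in LPS cells and 2.69 and 1.56 in control cells (log2 fold change 3.77 ± 0.18, adjusted p = 9.62e-05). Bst2, which tethers budding viruses, read 259.5 and 273 FPKM in LPS plus Sal-B cells, 357 and 366 in LPS cells and 77.8 and 71.9 in control cells. Isg20, an exonuclease of viral RNA, and Oas3, a sensor of double-stranded RNA, read slightly above their level with LPS alone. Isg20 read 39.8 and 40.7 FPKM in LPS plus Sal-B cells, 39.6 and 35.8 in LPS cells and 7.06 and 5.97 in control cells. Oas3 read 41.1 and 42.4 FPKM in LPS plus Sal-B cells, 35.5 and 34.6 in LPS cells and 11 and 11.6 in control cells. Against LPS cells neither passed as deposited (limma, adjusted p = 0.527 and 0.059) and both were higher at the same median (0.0414 and 0.00809). Isg15, a ubiquitin-like modifier, and Rsad2, which makes a chain-terminating nucleotide, were chosen after their values were seen and had lower FPKM than in LPS cells (limma, adjusted p = 0.0406 and 0.00402 as deposited, 0.0538 and 0.00434 at the same median). Isg15 read 42.1 and 43.6 FPKM in LPS plus Sal-B cells, 119.9 and 129 in LPS cells and 4.45 and 1.01 in control cells. Rsad2 read 12.9 and 13.1 FPKM in LPS plus Sal-B cells, 40.1 and 39.4 in LPS cells and 1.66 and 0.761 in control cells.

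The promoters of Isg15 and Oas1a are shown as examples of letters common in the list. The letters were not used to choose the list, but they belong to the element named for the same response. A high share is therefore not independent of the choice. Capitals mark GAAANNGAA on either strand, the core of the interferon-stimulated response element, in the 250 bases before the start (RefSeq, GRCm38.p6). Isg15 lies at chr4:156200819-156201068 and Oas1a at chr5:120907526-120907775, both on the minus strand.
Isg15: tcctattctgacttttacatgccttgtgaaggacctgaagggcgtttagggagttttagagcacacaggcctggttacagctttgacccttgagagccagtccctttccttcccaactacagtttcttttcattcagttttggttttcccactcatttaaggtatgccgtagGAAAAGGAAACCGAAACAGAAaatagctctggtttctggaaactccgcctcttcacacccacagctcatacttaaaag
Oas1a: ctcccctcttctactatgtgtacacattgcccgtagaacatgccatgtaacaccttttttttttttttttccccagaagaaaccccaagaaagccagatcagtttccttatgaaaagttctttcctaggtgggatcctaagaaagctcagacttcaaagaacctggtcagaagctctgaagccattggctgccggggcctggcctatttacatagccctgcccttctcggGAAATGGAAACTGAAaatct
Isg15 held 3 overlapping matches, beginning 78, 72 and 66 bases before the start, and Oas1a 2 overlapping ones, beginning 20 and 14 bases before it. The motif occurred in 20 of 31 promoters of the list (64.5%), against 7.41% of all 7884 promoters and 9.59% of the promoters of genes that rose. Oas1a, which makes an activator of RNase L and is given for its promoter, read 39.8 and 39.3 FPKM in LPS plus Sal-B cells, 54.9 and 55.4 in LPS cells and 7.52 and 3.44 in control cells.

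MHC class I and peptide loading genes were mixed as deposited and mainly higher at the same median. Of 21 tested, 7 were higher and 4 lower as deposited and 16 and 1 at the same median, with medians of 0.07 and 0.79. Tapbp, which holds class I molecules for loading, rose by 0.89 ± 0.08 on the log2 scale to 92.9 and 92.9 FPKM in LPS plus Sal-B cells, against 49.7 and 50 in control cells, and the immunoproteasome subunit Psmb8 rose by 0.78 ± 0.11 on the same scale. Erap1, which trims peptides, fell to 4.33 and 4.14 FPKM in LPS plus Sal-B cells, against 14.7 and 17.1 in control cells. Of 8 costimulatory and checkpoint ligands, 3 were higher and 3 lower as deposited and 4 and 2 at the same median (medians 0.23 and 0.89). Cd40, through which T cells activate macrophages, read 7.14 and 8.09 FPKM in LPS plus Sal-B cells, 16.7 and 13.9 in LPS cells and 1.91 and 1.58 in control cells. Cd83, a surface protein of activated antigen-presenting cells, went the other way, at 9.04 and 8.88 FPKM in LPS plus Sal-B cells, 20.4 and 20.4 in LPS cells and 26.4 and 23 in control cells.

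Immediate early factors, which answer a stimulus without new protein synthesis, had 12 of 24 higher and 6 lower as deposited and 16 and 4 at the same median (medians 0.34 and 0.87). Jund, a subunit of AP-1, read 273 and 265 FPKM in LPS plus Sal-B cells, 258 and 236 in LPS cells and 30.5 and 20.2 in control cells (log2 fold change 3.39 ± 0.19, limma adjusted p = 0.000111). The small Maf proteins Maff and Mafk, which pair with NRF2 and its relatives, rose by 2.73 ± 0.09 and 1.51 ± 0.10 on the log2 scale. Myc, a driver of growth, read 3.78 and 3.6 FPKM in LPS plus Sal-B cells, 8.14 and 6.87 in LPS cells and 0.534 and 0.566 in control cells. Egr1 and Klf10, chosen after their values were seen, were below control. Egr1 read 0.996 and 0.923 FPKM in LPS plus Sal-B cells, 11.4 and 10.3 in LPS cells and 6.57 and 3.32 in control cells. Klf10 read 2.42 and 2.56 FPKM in LPS plus Sal-B cells, 0.731 and 2.76 in LPS cells and 21.3 and 28.6 in control cells. Egr1 was therefore lowest in LPS plus Sal-B cells and highest in LPS cells.

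Several transcripts stood above both other groups in LPS plus Sal-B cells. Nfkbia, Nos2, Gipr, Hspa1a and Hspa1b are 5 of these, and the others were chosen after their values were seen, apart from Cdkn1a. Pim1, a kinase that supports survival, read 178 and 177 FPKM in LPS plus Sal-B cells, 57.8 and 59.3 in LPS cells and 13.8 and 10.3 in control cells. Its contrast with LPS cells was 1.58 as deposited (limma, adjusted p = 0.00202) and 1.83 at the same median. Cdkn1a, the inhibitor of cyclin-dependent kinases known as p21, read 341 and 345 FPKM in LPS plus Sal-B cells, 196 and 189 in LPS cells and 51.8 and 36.3 in control cells, above LPS cells by 0.83 (adjusted p = 0.0137). Ccnd3, a cyclin of the G1 phase that p21 binds, read 11.8 and 12.3 FPKM in LPS plus Sal-B cells, 1.91 and 1.93 in LPS cells and 1 and 1.03 in control cells. Ccnd3 stood under 2 FPKM in all LPS and control libraries and was higher in LPS plus Sal-B cells (2.16 over LPS, adjusted p = 0.000843).

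Mef2c, a transcription factor of muscle, neurons and myeloid cells, read 21.1 and 20.4 FPKM in LPS plus Sal-B cells, 2.87 and 2.83 in LPS cells and 3.38 and 5.32 in control cells. Pou2f2, the lymphoid and myeloid octamer factor Oct-2, read 128 and 126 FPKM in LPS plus Sal-B cells, 42.3 and 41.4 in LPS cells and 22.3 and 24.4 in control cells. Both were above LPS cells, by 2.49 and 1.58 as deposited (limma, adjusted p = 0.00165 and 0.00112). The condensin subunits Smc2 and Smc4, which compact chromosomes, stood above control in LPS plus Sal-B cells and below it in LPS cells. Smc2 read 58.4 and 60.3 FPKM in LPS plus Sal-B cells, 15.2 and 14.7 in LPS cells and 35.5 and 26.6 in control cells. Smc4 read 147 and 149 FPKM in LPS plus Sal-B cells, 43.3 and 49.9 in LPS cells and 82.9 and 79.7 in control cells. Against control both were higher in LPS plus Sal-B cells on both scales, by 0.93 ± 0.15 and 0.86 ± 0.10 on the log2 scale as deposited.

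**Figure D3:**
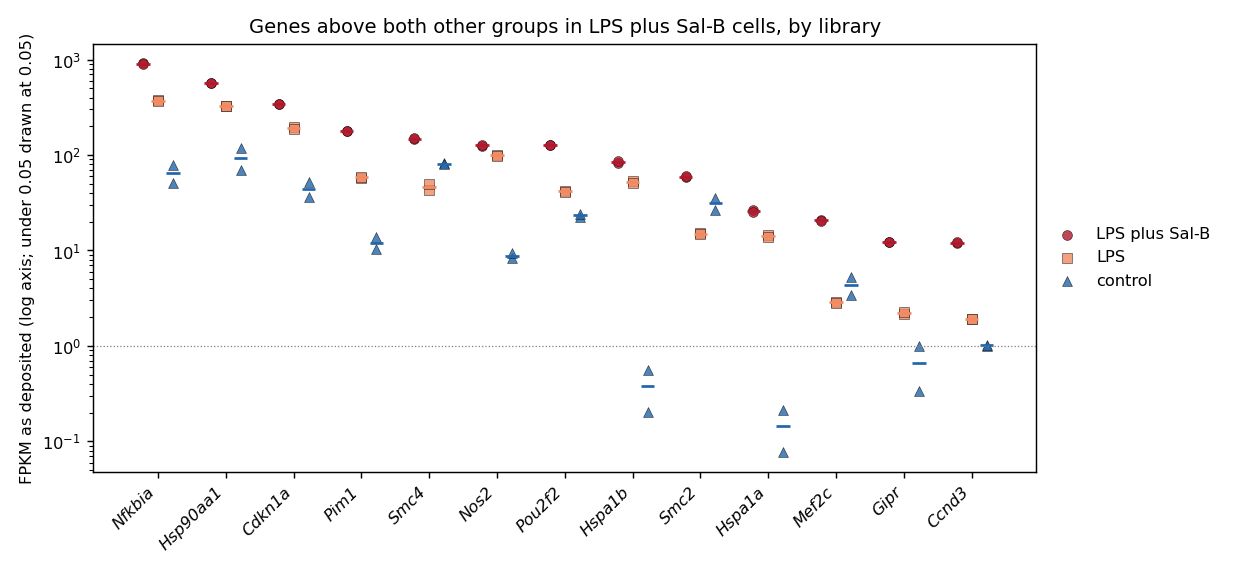
FPKM as deposited on a log axis for 13 genes that stood above both other groups in LPS plus Sal-B cells, with the 2 LPS plus Sal-B libraries as circles, the LPS libraries as squares, the control libraries as triangles and each mean as a bar. Circles are topmost for each gene by the choice of genes shown, and for Smc2, Smc4 and Mef2c the squares lie lowest.

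The inducible heat shock proteins were among the genes that exceeded LPS cells. Hspa1b read 81.8 and 86.3 FPKM in LPS plus Sal-B cells, 53.2 and 50.6 in LPS cells and 0.202 and 0.553 in control cells (log2 fold change over control 5.96 ± 0.14, limma adjusted p = 4.02e-05). Hspa1a read 26.4 and 25.2 FPKM in LPS plus Sal-B cells, 14.5 and 14 in LPS cells and 0.0764 and 0.214 in control cells (4.55 ± 0.10, adjusted p = 4.02e-05). Both encode inducible Hsp70. Over LPS cells they were higher by 0.69 and 0.81 as deposited (adjusted p = 0.0144 and 0.00402). Their promoters (RefSeq, GRCm38.p6, minus strand) show how near the copies are. The 250 bases before the start are identical at 247 positions (98.8%). Capitals mark GAANNTTC on either strand, a pair of the units bound by heat shock factors. They lie at chr17:34972157-34972406 and chr17:34959239-34959488.
Hspa1a: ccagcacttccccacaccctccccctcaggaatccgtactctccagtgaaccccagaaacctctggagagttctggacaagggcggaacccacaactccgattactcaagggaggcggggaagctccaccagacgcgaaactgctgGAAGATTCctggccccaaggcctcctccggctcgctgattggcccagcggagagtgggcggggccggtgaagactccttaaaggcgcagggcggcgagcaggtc
Hspa1b: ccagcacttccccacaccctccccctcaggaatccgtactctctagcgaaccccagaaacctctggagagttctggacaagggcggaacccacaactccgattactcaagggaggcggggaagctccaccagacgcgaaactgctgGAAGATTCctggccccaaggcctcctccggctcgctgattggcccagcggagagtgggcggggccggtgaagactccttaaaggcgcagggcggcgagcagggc
Their coding parts are known to be near-copies as well, so the division of fragments between the pair is uncertain and their values are best read together. In each the match begins 104 bases before the start. It occurred in 8 of 16 promoters of the heat shock list (50.0%), against 5.49% of all promoters.

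As a list, heat shock chaperones had 8 of 21 higher and 6 lower as deposited, 13 and 3 at the same median, and medians of −0.03 and 0.56. Hsp90aa1, the inducible cytosolic Hsp90, and Hspa8, the constitutive Hsp70, were chosen after their values were seen. Hsp90aa1 read 574 and 569 FPKM in LPS plus Sal-B cells, 326 and 324 in LPS cells and 118 and 69.6 in control cells. Hspa8 read 413 and 407 FPKM in LPS plus Sal-B cells, 347 and 348 in LPS cells and 154 and 195 in control cells. Hspa4 and Hspa13 fell, and they are a partner that recharges Hsp70 and a microsomal relative of it. Hspa4 read 36.6 and 37.3 FPKM in LPS plus Sal-B cells, against 74.2 and 71.5 FPKM in control cells. Hspa13 read 1.56 and 1.66 FPKM in LPS plus Sal-B cells, against 6.65 and 6.71 FPKM in control cells.

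Genes of the unfolded protein response were divided. Of 24 tested, 7 were higher and 11 lower as deposited and 10 and 7 at the same median, with medians of −0.68 and 0.02. Xbp1, the factor that the sensor Ern1 activates by splicing, read 2.06 and 2.93 FPKM in LPS plus Sal-B cells, 22.3 and 23 in LPS cells and 52.2 and 67.1 in control cells (log2 fold change −4.12 ± 0.17, limma adjusted p = 8.75e-05, and −3.47 at the same median). Ern1 read 2.74 and 2.86 FPKM in LPS plus Sal-B cells, against 10.6 and 8.57 in control cells, and the sensor Atf6 read 7.08 and 7.02 FPKM in LPS plus Sal-B cells, against 22.6 and 18.4 in control cells. Dnajb9, an endoplasmic reticulum chaperone, read 3.34 and 3.04 FPKM in LPS plus Sal-B cells, against 14.3 and 13.5 in control cells. All 4 fell on both scales. The lumenal chaperones Hspa5 and Hsp90b1, chosen after their values were seen, were higher than control. Hspa5 read 218 and 173 FPKM in LPS plus Sal-B cells, 604 and 616 in LPS cells and 56.6 and 85.8 in control cells. Hsp90b1 read 413 and 413 FPKM in LPS plus Sal-B cells, 234 and 228 in LPS cells and 197 and 224 in control cells. Hsp90b1 was thus above both other groups, while Hspa5 lay between them. CCAAT, the letters bound by NF-Y, occurred in 17 of 21 promoters of this list (81.0%), against 39.8% of all promoters.

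NRF2 targets and glutathione genes had 3 of 23 higher and 14 lower as deposited and 8 and 6 at the same median (medians −0.54 and 0.20). The share lower was 60.9% as deposited, near the 58.8% of all genes, and 26.1% at the same median, under the 32% of all genes. Nfe2l2, which encodes NRF2, read 11.5 and 12.3 FPKM in LPS plus Sal-B cells, 24.4 and 27.2 in LPS cells and 60 and 49.1 in control cells. Cat, the catalase that removes hydrogen peroxide, read 8.44 and 8.21 FPKM in LPS plus Sal-B cells, 20.4 and 18.1 in LPS cells and 58.7 and 53.1 in control cells. Gclc, the first enzyme of glutathione synthesis, read 9.8 and 9.32 FPKM in LPS plus Sal-B cells, against 32.4 and 28 in control cells. Slc7a11, the cystine transporter, was lower than both other groups, at 0.399 and 0.453 FPKM in LPS plus Sal-B cells, 4.12 and 4.18 in LPS cells and 4.5 and 4.05 in control cells. Hmox1, which degrades heme, was higher than control on both scales, at 122 and 130.2 FPKM in LPS plus Sal-B cells, 429.8 and 429 in LPS cells and 62.3 and 69 in control cells (log2 fold change 0.93 ± 0.09, adjusted p = 0.00037).

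A set of 12 genes was lost from the untreated state, as they stood at 10 FPKM or more in both control libraries and under 1 FPKM in both LPS plus Sal-B libraries: Ranbp3l, Tlr7, Olfr933, S1pr1, Fcgr3, Serpinb8, Tlr13, Fcgr4, I830077J02Rik, Havcr2, Slc16a12 and Jade1. Without control replicate 2 the set held 27 genes, and at the same median 6 met the levels: Ranbp3l, Olfr933, S1pr1, Fcgr3, Serpinb8 and Tlr13. Ranbp3l, a Ran-binding protein, read 0.555 and 0.622 FPKM in LPS plus Sal-B cells, 0.435 and 0.529 in LPS cells and 38.7 and 115 in control cells (log2 fold change −5.42 ± 0.47, limma adjusted p = 0.000288), with control libraries that differed widely from each other (−6.19 without control replicate 2 and −4.64 without control replicate 3). S1pr1, the receptor through which cells follow sphingosine 1-phosphate, read 0.139 and 0.0834 FPKM in LPS plus Sal-B cells, 0.673 and 0.874 in LPS cells and 17.8 and 36.8 in control cells (log2 fold change −4.59 ± 0.32, adjusted p = 0.000154). Olfr933, an odorant receptor gene, read 0.071 and 0.107 FPKM in LPS plus Sal-B cells, 0.335 and 0.265 in LPS cells and 23.3 and 34 in control cells. Serpinb8, a serine protease inhibitor, read 0.158 and 0.113 FPKM in LPS plus Sal-B cells, 0.716 and 0.924 in LPS cells and 15.3 and 27.9 in control cells. These 4 were also low with LPS alone, and their contrast between treated groups did not pass (limma, adjusted p = 0.096 to 0.883 as deposited). Their control pairs were further apart than their treated pairs and enter the error of that contrast. Olfr933, S1pr1 and Serpinb8 stood at 29.7%, 14.4% and 16.5% of their LPS mean and Ranbp3l at 122%. Equal levels in the 2 treated groups are therefore not shown, and differences under 1 FPKM are compressed by log2(FPKM + 1).

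The Fc gamma receptors Fcgr3 and Fcgr4 were lower than in both other groups. Fcgr3, an activating receptor for antibody complexes, read 0.436 and 0.406 FPKM in LPS plus Sal-B cells, 4.98 and 4.76 in LPS cells and 23.7 and 27.5 in control cells. Its log2 fold change was −4.22 ± 0.11 against control (limma, adjusted p = 4.4e-05) and −2.05 against LPS cells (adjusted p = 0.00112). Fcgr4, another activating receptor, read 0.94 and 0.819 FPKM in LPS plus Sal-B cells, 3.73 and 4.79 in LPS cells and 13.2 and 14.1 in control cells, with −1.48 against LPS cells (adjusted p = 0.00203). Both were thus lowest in LPS plus Sal-B, intermediate in LPS and highest in control cells. They are neighbours on chromosome 1, at chr1:171051174-171064935 (Fcgr3) and chr1:171018920-171029761 (Fcgr4). Havcr2, the inhibitory receptor Tim-3, read 0.208 and 0.228 FPKM in LPS plus Sal-B cells, 0.973 and 0.551 in LPS cells and 11 and 15.1 in control cells. Slc16a12, a creatine transporter, read 0.669 and 0.825 FPKM in LPS plus Sal-B, 2.79 and 2.92 in LPS and 11.9 and 13.7 in control cells. Jade1, a subunit of a histone acetyltransferase complex, read 0.272 and 0.665 FPKM in LPS plus Sal-B, 2.68 and 2.58 in LPS and 10.3 and 11.4 in control cells. I830077J02Rik, which has no descriptive name in the table, read 0.99 and 0.669 FPKM in LPS plus Sal-B cells, 2.7 and 2.38 in LPS cells and 15.2 and 10.9 in control cells.

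The same stepwise order was found in further genes among the 12 largest falls. Adam10, the protease that sheds many surface proteins, read 2.45 and 2.85 FPKM in LPS plus Sal-B cells, 15.9 and 16.6 in LPS cells and 79 and 89.3 in control cells (log2 fold change over control −4.54 ± 0.11, limma adjusted p = 4.02e-05, and −2.24 against LPS cells, adjusted p = 0.000971). Cd33, a receptor for sialic acids, read 4.28 and 4.12 FPKM in LPS plus Sal-B cells, 11.9 and 13.2 in LPS cells and 82.7 and 106 in control cells. Cst7, an inhibitor of lysosomal cysteine proteases, read 7.2 and 6.38 FPKM in LPS plus Sal-B cells, 35.2 and 34.3 in LPS cells and 142 and 83 in control cells. Both were also lower than in LPS cells on both scales. Shtn1, which shapes axons in neurons, read 2.19 and 2.3 FPKM in LPS plus Sal-B cells, 2.3 and 2.07 in LPS cells and 39.7 and 49.7 in control cells, and its contrast with LPS cells did not pass (0.03, adjusted p = 0.879). Scel, a component of the cornified envelope of skin, was listed at 0 in both LPS plus Sal-B libraries and read 0.0793 and 0.335 FPKM in LPS and 9 and 29.1 in control libraries.

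**Figure D4:**
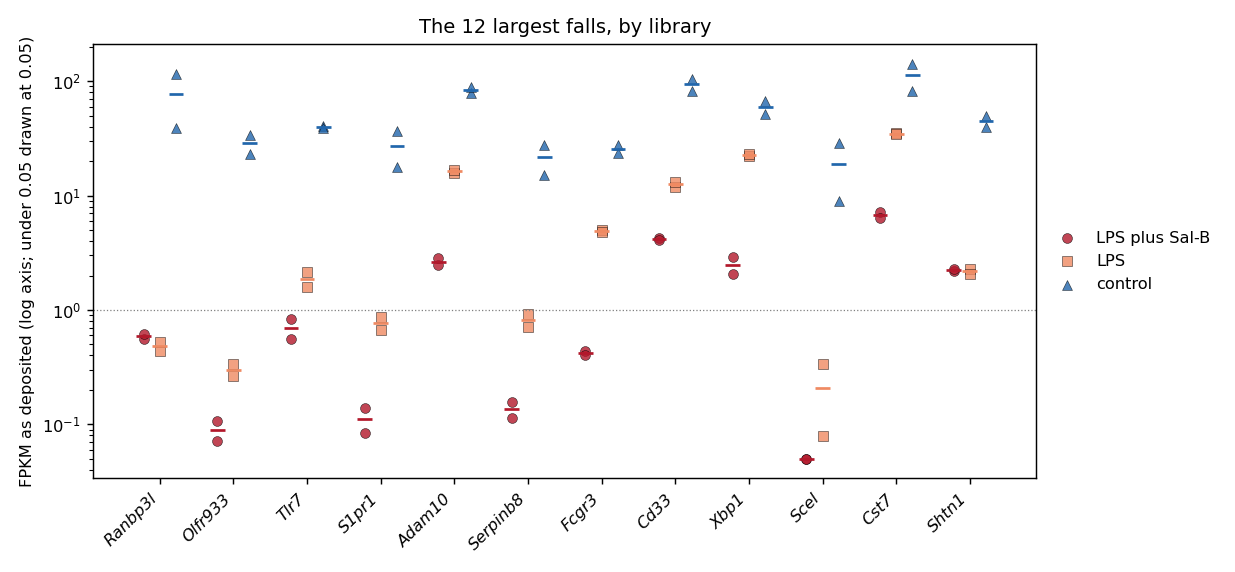
FPKM as deposited on a log axis for the 12 genes with the largest falls that passed on both scales, with the 2 LPS plus Sal-B libraries as circles, the LPS libraries as squares, the control libraries as triangles and each mean as a bar, where values under 0.05, such as both LPS plus Sal-B values of Scel, are drawn at 0.05. For Adam10, Fcgr3, Cd33, Xbp1 and Cst7 the circles lie well below the squares, while for Ranbp3l and Shtn1 they lie level with them.

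Among Fc and phagocytic receptors as a list, 4 of 15 were higher and 7 lower as deposited and 5 and 6 at the same median (medians −0.42 and 0.23). Against LPS cells 12 were lower and 1 higher as deposited. Trem2, a lipid-sensing receptor of tissue macrophages, read 1.74 and 2.07 FPKM in LPS plus Sal-B cells, 3.48 and 3.87 in LPS cells and 26.5 and 18.6 in control cells (log2 fold change −2.38 at the same median, limma adjusted p = 0.000234). Fcer1g, the signalling chain that Fcgr3 and Fcgr4 need, went the other way, at 1599 and 1501 FPKM in LPS plus Sal-B cells, 1554 and 1608 in LPS cells and 669 and 648 in control cells. Fcgr1, the high-affinity receptor chosen after its values were seen, read 3.48 and 3.49 FPKM in LPS plus Sal-B cells, 8.97 and 8.85 in LPS cells and 18.7 and 12.3 in control cells. Of 13 receptors for chemoattractants and lipid mediators, 2 were higher and 6 lower as deposited and 5 and 3 at the same median (medians −0.40 and 0.08). Gpr183, which follows oxysterols, read 2.44 and 2.72 FPKM in LPS plus Sal-B cells, 4.5 and 3.53 in LPS cells and 23.7 and 21.2 in control cells, and Cxcr4, the receptor of Cxcl12, was listed at 0 in both LPS plus Sal-B libraries, with 5.31 and 7.22 FPKM in control libraries.

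Integrins and adhesion genes had 2 of 14 higher and 6 lower as deposited, 6 and 5 at the same median, and medians of −0.30 and 0.45. The alpha chains for fibronectin moved in opposite directions. Itga4, a chain of the receptor for Vcam1 and fibronectin, read 23.8 and 24.4 FPKM in LPS plus Sal-B cells, 33.1 and 32.6 in LPS cells and 276 and 347 in control cells (log2 fold change −3.63 ± 0.12, limma adjusted p = 7.05e-05). Itga5, a chain of the classical fibronectin receptor, read 46.5 and 48.3 FPKM in LPS plus Sal-B cells, 51.6 and 49 in LPS cells and 11.8 and 8.67 in control cells (2.12 ± 0.15, adjusted p = 0.000152). For growth factor receptors and myeloid signalling, 3 of 26 were higher and 16 lower as deposited and 9 and 11 at the same median (medians −0.66 and 0.01). Those lower made up 61.5% and 42.3%, against 58.8% and 32% of all genes. Csf1r, the receptor on which macrophages depend for growth, read 29.4 and 30.4 FPKM in LPS plus Sal-B cells, 39.4 and 38.1 in LPS cells and 149 and 117 in control cells (log2 fold change −2.10 ± 0.13, adjusted p = 0.000128). Tgfbr2 and Ifngr1, receptor chains for TGF-beta and interferon gamma, fell. Tgfbr2 read 3.25 and 3.5 FPKM in LPS plus Sal-B cells, against 27.9 and 28.2 FPKM in control cells. Ifngr1 read 2.53 and 2.69 FPKM in LPS plus Sal-B cells, against 20.9 and 19.2 FPKM in control cells. Tnfrsf1b, the second TNF receptor, rose instead, at 80.6 and 85.3 FPKM in LPS plus Sal-B cells, 148 and 146 in LPS cells and 8.24 and 7.28 in control cells.

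Myeloid transcription factors had 6 of 19 higher and 10 lower as deposited and 7 and 7 at the same median (medians −0.46 and 0.16). Irf8, a factor of monocyte development, read 28.5 and 28.7 FPKM in LPS plus Sal-B cells, 24.9 and 26.6 in LPS cells and 8.44 and 8.66 in control cells and rose by 1.63 ± 0.08 (limma, adjusted p = 0.000103). Bhlhe40, a repressor that limits interleukin-10, read 2.41 and 2.42 FPKM in LPS plus Sal-B cells, against 16.4 and 21.1 FPKM in control cells (log2 fold change −2.52 ± 0.14). Id2, an inhibitor of helix-loop-helix factors, read 7.76 and 8.09 FPKM in LPS plus Sal-B cells, 26.6 and 25.3 in LPS cells and 25.9 and 26.8 in control cells, lower than both other groups. Of 7 osteoclast and fusion genes 2 were higher and 5 lower as deposited and 2 and 4 at the same median (medians −1.12 and −0.69). Car2, the carbonic anhydrase that acidifies bone, read 64.7 and 67.7 FPKM in LPS plus Sal-B cells, 96 and 96.3 in LPS cells and 274 and 288 in control cells. Nfatc1, the master factor of osteoclasts, read 1.5 and 1.55 FPKM in LPS plus Sal-B cells, 5.44 and 3.03 in LPS cells and 16.2 and 18.2 in control cells. Acp5, their tartrate-resistant phosphatase, read 0.438 and 0.409 FPKM in LPS plus Sal-B cells, 2.88 and 2.92 in LPS cells and 2.32 and 1.88 in control cells.

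Lysosomal genes were among the lowest lists. Of 29 hydrolases and membrane proteins tested, 1 was higher and 23 were lower as deposited, and 7 were higher and 16 lower at the same median, with medians of −1.27 and −0.53. They were also lower than in LPS cells in 19 cases as deposited and 16 at the same median, and higher in none by limma. Lgmn, an asparaginyl endopeptidase, read 50.4 and 53.6 FPKM in LPS plus Sal-B cells, 86.9 and 84.1 in LPS cells and 267 and 276 in control cells (log2 fold change −2.36 ± 0.08, adjusted p = 7.05e-05). Glb1, the lysosomal beta-galactosidase, read 5.2 and 5.36 FPKM in LPS plus Sal-B cells, 8.01 and 8.05 in LPS cells and 26.3 and 25.2 in control cells. Man2b1, an alpha-mannosidase, read 2.16 and 2.31 FPKM in LPS plus Sal-B cells, 3.05 and 2.72 in LPS cells and 13.7 and 15.5 in control cells. Lamp1, the main glycoprotein of the lysosomal membrane, and Lipa, the acid lipase, were chosen after their values were seen. Lamp1 read 92.6 and 97.5 FPKM in LPS plus Sal-B cells, 141 and 141 in LPS cells and 494 and 641 in control cells. Lipa read 52.5 and 54.1 FPKM in LPS plus Sal-B cells, 57.1 and 53.2 in LPS cells and 198 and 249 in control cells.

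The proton pump of the lysosome lay near all genes. Of 15 V-ATPase subunits 1 was higher and 7 were lower as deposited, and 5 were higher and 4 lower at the same median (medians −0.61 and 0.10). Atp6v1a, the catalytic subunit, read 22.9 and 24.1 FPKM in LPS plus Sal-B cells, against 55.9 and 58.5 FPKM in control cells (log2 fold change −1.25 ± 0.08). Autophagy genes had 5 of 22 higher and 12 lower as deposited and 9 and 5 at the same median (medians −0.47 and 0.17). Atg3 and Atg5, which attach lipid to the autophagosome marker, fell, with log2 fold changes of −1.53 ± 0.13 and −1.06 ± 0.10, and Atg16l1, their partner, rose by 0.99 ± 0.11 on the log2 scale. Liver X receptor targets, which export cholesterol, had 1 of 13 higher and 9 lower as deposited and 2 and 7 at the same median (medians −1.35 and −0.71). Abcg1, a cholesterol exporter, read 3.23 and 3.28 FPKM in LPS plus Sal-B cells, 4.38 and 4.3 in LPS cells and 20.1 and 20.5 in control cells (log2 fold change −2.32 ± 0.09, limma adjusted p = 7.77e-05). Smpdl3a, a phosphodiesterase, read 0.256 and 0.252 FPKM in LPS plus Sal-B cells, 0.642 and 0.443 in LPS cells and 8.78 and 12.6 in control cells. Lpl, the lipoprotein lipase, chosen after its values were seen, was the member that rose as deposited, at 122 and 123 FPKM in LPS plus Sal-B cells, 93.9 and 90.7 in LPS cells and 33.8 and 20.9 in control cells.

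Sterol synthesis genes lay above all genes, with 5 of 23 higher and 4 lower as deposited and 15 and 1 at the same median (medians −0.14 and 0.56). Srebf2, the factor that drives the pathway, read 42.8 and 44.5 FPKM in LPS plus Sal-B cells, 27.5 and 25.3 in LPS cells and 23.8 and 27.4 in control cells. Mvd, an enzyme of the mevalonate branch, read 18.8 and 19.9 FPKM in LPS plus Sal-B cells, 12.1 and 13.6 in LPS cells and 9.64 and 10.7 in control cells. Both rose on both scales, as 5 of the 23 did in all, while 1 fell. Glycolysis had 6 of 19 genes higher and 5 lower as deposited and 12 and 0 at the same median (medians −0.17 and 0.59). Hk1, a hexokinase, read 39.7 and 41.2 FPKM in LPS plus Sal-B cells, 20.2 and 19.4 in LPS cells and 16.9 and 18 in control cells, above both other groups, and Slc2a1, the glucose transporter, and Ldha, the lactate dehydrogenase, rose by 1.06 ± 0.13 and 0.75 ± 0.08 on the log2 scale. In the citrate cycle 0 of 20 genes were higher and 17 lower as deposited, and 4 and 8 at the same median (medians −1.06 and −0.32). Idh3g, a subunit of isocitrate dehydrogenase, read 16.4 and 16.9 FPKM in LPS plus Sal-B cells, 34.4 and 32.3 in LPS cells and 58.9 and 56.3 in control cells. Sdha, the catalytic subunit of succinate dehydrogenase, read 12.7 and 12.8 FPKM in LPS plus Sal-B cells, 19.6 and 18 in LPS cells and 51.9 and 46.1 in control cells.

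Nuclear respiratory chain genes depended on the scale. Of 46 tested, 9 were higher and 26 lower as deposited, and 22 and 10 at the same median, so the commoner direction differed between the scales (medians −0.42 and 0.33). Uqcrc2 and Uqcrfs1, subunits of complex III, fell, with log2 fold changes of −1.23 ± 0.09 and −1.19 ± 0.09. On both scales 10 of the 46 fell in all and 9 rose. The 13 mitochondrially encoded genes had 3 higher and 10 lower as deposited, and 3 and 6 at the same median (medians −0.95 and −0.19). They made up 26.0% and 25.0% of FPKM in LPS plus Sal-B, 18.1% and 18.8% in LPS, and 29.1% and 30.7% in control libraries. mt-Nd3, a subunit of complex I, read 215 and 212 FPKM in LPS plus Sal-B cells, 122 and 129 in LPS cells and 1756 and 1688 in control cells (log2 fold change −3.01 ± 0.08, limma adjusted p = 4.4e-05). mt-Cytb, the cytochrome of complex III, read 3437 and 3360 FPKM in LPS plus Sal-B cells, 2321 and 2308 in LPS cells and 11930 and 11890 in control cells. Both were higher than in LPS cells and lower than in control cells. The submitters' protocol names poly(A) capture or ribosomal RNA removal without saying which library had which, and a share of capture in these values was not tested.

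Genes of cell division fell in 20 of 40 cases on both scales and rose in 3. Of the 40 mitosis and cytokinesis genes 3 were higher and 34 lower than control as deposited, and 6 and 20 at the same median, with medians of −1.10 and −0.41. Against LPS cells 15 were higher and 4 lower as deposited, and 23 and 0 at the same median. Mki67, a marker of proliferating cells, read 22 and 22.5 FPKM in LPS plus Sal-B cells, 13.7 and 13.7 in LPS cells and 79.2 and 67.7 in control cells (log2 fold change −1.67 ± 0.10, limma adjusted p = 0.000126, and 0.66 against LPS cells, adjusted p = 0.00636). Mki67 thus stood between the other groups. Nusap1, which bundles spindle microtubules, read 5.73 and 6.55 FPKM in LPS plus Sal-B cells, 7.71 and 7.93 in LPS cells and 67.8 and 51.5 in control cells (log2 fold change −3.08 ± 0.15, adjusted p = 9.86e-05). The mitotic cyclin gene Ccna2 read 15.5 and 16.6 FPKM in LPS plus Sal-B cells, 18.9 and 17.4 in LPS cells and 98.4 and 83.6 in control cells. Ccnb1, a further cyclin of mitosis, read 5.27 and 5.97 FPKM in LPS plus Sal-B cells, 7.28 and 7.58 in LPS cells and 24.7 and 23.4 in control cells. At the same median none of these 3 differed from LPS cells by the test (limma, adjusted p = 0.625, 0.625 and 0.28), and as deposited Ccnb1 was lower (0.0378). Kif11, a spindle motor chosen after its values were seen, read 2.58 and 2.7 FPKM in LPS plus Sal-B cells, 2.81 and 2.76 in LPS cells and 25.8 and 19.9 in control cells.

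The promoters of Mki67 and Kif11 are shown as examples of letters common in the mitosis list. The list was chosen by function, and such genes are known for these letters, so a high share is not independent of the choice. Capitals mark TTTGAA on either strand, the core of the cell cycle homology region through which such genes are known to be silenced outside division (RefSeq, GRCm38.p6). Mki67 lies at chr7:135716380-135716629 on the minus strand and Kif11 at chr19:37376132-37376381 on the plus strand.
Mki67: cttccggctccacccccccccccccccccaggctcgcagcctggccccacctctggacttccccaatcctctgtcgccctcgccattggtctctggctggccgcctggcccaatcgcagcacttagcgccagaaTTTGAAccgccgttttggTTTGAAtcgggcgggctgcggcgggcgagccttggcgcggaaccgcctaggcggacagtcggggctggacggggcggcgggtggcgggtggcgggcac
Kif11: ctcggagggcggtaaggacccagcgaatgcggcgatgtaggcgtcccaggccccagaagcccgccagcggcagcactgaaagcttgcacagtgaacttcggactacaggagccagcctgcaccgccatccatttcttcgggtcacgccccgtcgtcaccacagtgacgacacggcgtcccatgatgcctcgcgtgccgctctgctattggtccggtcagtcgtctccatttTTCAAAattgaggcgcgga
In Mki67 the matches begin 116 and 98 bases before the start, and in Kif11 the match begins 19 bases before it, on the other strand. TTTGAA occurred in 24 of 32 promoters of the list (75.0%), against 12.2% of all 7884 promoters and 13.6% of the promoters of genes that fell on both scales. CCAAT occurred in 25 of the 32 (78.1%), against 39.8% of all promoters.

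DNA replication and nucleotide synthesis genes had 0 of 41 higher and 29 lower as deposited and 2 and 9 at the same median (medians −1.10 and −0.44). Ccne2, a cyclin of the entry into S phase, read 1.1 and 1.25 FPKM in LPS plus Sal-B cells, 0.637 and 0.505 in LPS cells and 6.12 and 4.42 in control cells. Gins3, a subunit of the replicative helicase, read 9.38 and 10.3 FPKM in LPS plus Sal-B cells, 11.2 and 12 in LPS cells and 23.4 and 23.1 in control cells. Mcm7, a further helicase subunit, read 4.74 and 5.31 FPKM in LPS plus Sal-B cells, 6.68 and 6.95 in LPS cells and 30.8 and 16.8 in control cells. Of 22 cell cycle brakes and p53 targets, 6 were higher and 11 lower as deposited and 7 and 7 at the same median (medians −0.66 and −0.01). Against the rise of Cdkn1a, Rb1, the retinoblastoma protein, read 3.48 and 3.86 FPKM in LPS plus Sal-B cells, against 20.8 and 29.1 FPKM in control cells. Cdkn2c and Ccng1, a kinase inhibitor and a p53 target, fell as well, with log2 fold changes of −1.81 ± 0.11 and −1.56 ± 0.09. Replication-dependent histone genes had 18 of 53 higher and 3 lower as deposited and 32 and 2 at the same median (medians 0.34 and 0.87). Hist1h1e, a linker histone, read 17.4 and 17.6 FPKM in LPS plus Sal-B cells, 6.64 and 7.52 in LPS cells and 3.13 and 3.31 in control cells. Histone genes are near-copies of each other and mostly lack poly(A) tails, so their values depend on how fragments were assigned and captured, which was not tested.

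Survival and death genes were divided. Of 17 BCL2 family genes 9 were higher and 5 lower as deposited, 9 and 4 at the same median (medians 0.41 and 1.11). The survival gene Bcl2a1a read 49.8 and 49.1 FPKM in LPS plus Sal-B cells, 66 and 65.4 in LPS cells and 5.5 and 3.12 in control cells, with near-identical copies Bcl2a1b and Bcl2a1d from which it is hard to separate. Bbc3, which promotes death, read 25.4 and 26.2 FPKM in LPS plus Sal-B cells, 13.8 and 12 in LPS cells and 8.13 and 6.47 in control cells, above both other groups, while the death-promoting genes Bid and Pmaip1 fell, with log2 fold changes of −1.81 ± 0.16 and −1.23 ± 0.10. Inflammasome and pyroptosis genes had 1 of 14 higher and 9 lower as deposited and 1 and 7 at the same median (medians −1.18 and −0.57). Casp1, which cleaves interleukin-1 beta, read 19.7 and 21.5 FPKM in LPS plus Sal-B cells, 57 and 51.1 in LPS cells and 74.1 and 67.9 in control cells (log2 fold change −1.74 ± 0.10, limma adjusted p = 0.000117). Naip2, a sensor of bacterial secretion systems, read 0.608 and 0.663 FPKM in LPS plus Sal-B cells, 1.72 and 1.96 in LPS cells and 4.45 and 4.49 in control cells. Aim2, a sensor of cytosolic DNA, read 20.7 and 20.9 FPKM in LPS plus Sal-B cells, 27.9 and 28.1 in LPS cells and 52.5 and 50.6 in control cells. All 3 were lower than control on both scales.

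Oxidase, complement and proteasome genes were mixed. Of 7 phagocyte oxidase genes 2 were higher and 1 lower as deposited and 5 and 0 at the same median (medians −0.16 and 0.58). Complement and coagulation genes had 4 of 8 higher and 2 lower as deposited and 4 and 1 at the same median (medians 0.39 and 0.77). Among them Cfp, properdin, read 89.2 and 93.1 FPKM in LPS plus Sal-B cells, 99.6 and 95.2 in LPS cells and 17.9 and 3.5 in control cells, with a log2 fold change of 3.32 ± 0.63, or 4.36 without control replicate 2 and 2.29 without control replicate 3. Proteasome subunits had 8 of 31 higher and 11 lower as deposited and 19 and 1 at the same median (medians −0.09 and 0.64). Psma7 and Psma4, of the core ring, rose by 1.36 ± 0.13 and 0.92 ± 0.11 on the log2 scale. On both scales 8 of the 31 rose in all and 1 fell.

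On both scales 34 of 80 cytosolic ribosomal protein genes rose (42.5%) and 1 fell, against 14% and 32% of all genes. Of 78 mitochondrial ones 5 rose (6.41%) and 18 fell (23.1%), both under those shares. Of 80 cytosolic ribosomal protein genes 34 were higher and 12 lower as deposited and 72 and 1 at the same median (medians 0.23 and 0.99), and of 78 mitochondrial ones 5 were higher and 46 lower as deposited and 27 and 18 at the same median (medians −0.53 and 0.17). Mrps2, of the small mitochondrial subunit and among those that fell, read 2.68 and 2.78 FPKM in LPS plus Sal-B cells, 7.35 and 8.07 in LPS cells and 31.9 and 22.8 in control cells. Translation factors had 6 of 29 higher and 17 lower as deposited and 11 and 5 at the same median (medians −0.65 and 0.10). Eif2s3x, a subunit of the initiation factor that brings the first tRNA, read 11.3 and 12.5 FPKM in LPS plus Sal-B cells, 22.3 and 22.4 in LPS cells and 53.4 and 61.2 in control cells. Aminoacyl-tRNA synthetases and amino acid synthesis genes had 1 of 28 higher and 17 lower as deposited and 3 and 5 at the same median (medians −0.99 and −0.31). Those lower made up 60.7% and 17.9%, against 58.8% and 32% of all genes. Pycr1, of proline synthesis, read 4.08 and 3.73 FPKM in LPS plus Sal-B cells, 0.848 and 0.627 in LPS cells and 12 and 10.2 in control cells, between the other groups.

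Numbered zinc finger genes, a large family most of which encode DNA-binding proteins, had 9 of 241 higher and 190 lower as deposited, and 31 and 135 at the same median, with medians of −1.02 and −0.62. Zfp35 read 0.553 and 0.591 FPKM in LPS plus Sal-B cells, 2.51 and 2.83 in LPS cells and 8.11 and 8.01 in control cells. Zfp944 read 0.428 and 0.461 FPKM in LPS plus Sal-B cells, 1.44 and 1.35 in LPS cells and 6.56 and 7.68 in control cells. Both stood under 1 FPKM in LPS plus Sal-B cells and above it in the other groups. Zfp326 and Zfp281, chosen after their values were seen, were above both other groups: Zfp326 read 14 and 14.6 FPKM in LPS plus Sal-B cells, 5.7 and 6.05 in LPS cells and 5.45 and 4.64 in control cells. Zfp281 read 17.1 and 17.7 FPKM in LPS plus Sal-B cells, 9.6 and 8.73 in LPS cells and 6.5 and 7.89 in control cells. Most of the family is expressed at a few FPKM, and the precision of such values is limited by a depth that the table does not give.

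**Figure D5:**
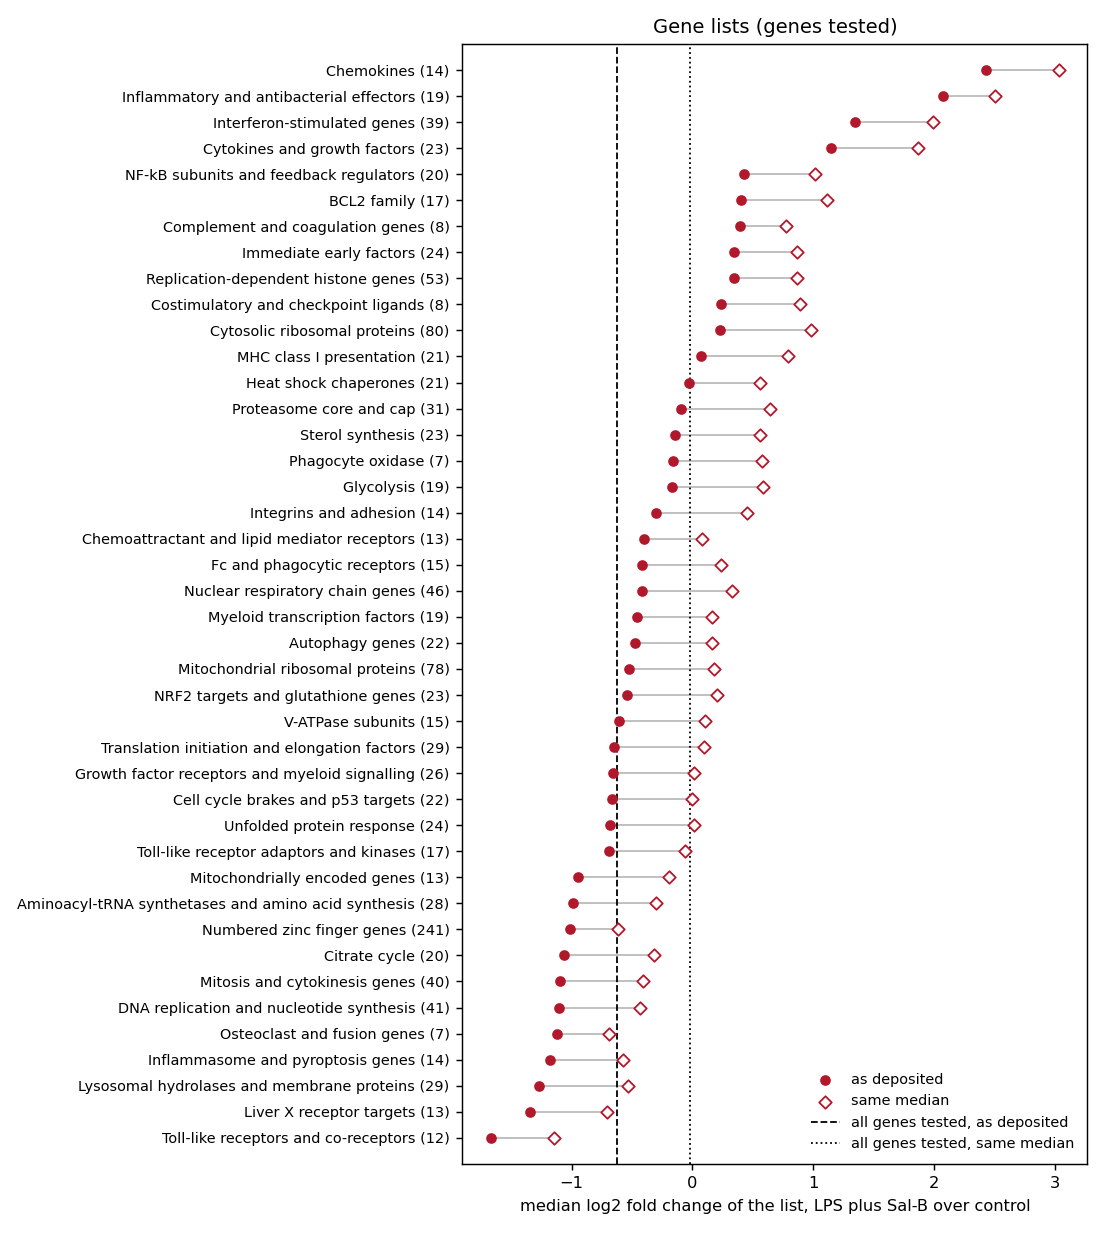
Median log2 fold change of LPS plus Sal-B over control (x axis) for the 42 gene lists (y axis, genes tested in brackets), as deposited (filled circles) and at the same median (open diamonds), with dashed and dotted lines at the median of all genes tested on each scale. Chemokines, effectors, interferon-stimulated genes and cytokines lie to the right of both lines, and Toll-like receptors, liver X receptor targets and lysosomal genes to the left of both.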

How the data were processed

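Poly(A) or ribosomal RNA-depleted RNA of RAW264.7 cells was sequenced from stranded libraries (per the labels' protocols). Per the submitters' processing notes the tools included cutadapt, HISAT2 2.0.5 and StringTie with GRCm38. The authors deposited FPKM per gene, all 10780 rows protein-coding, with no counts, so depth and counting error are unknown. All 6 value columns were used and 0 left out. Genes with at least 1 FPKM in 2 libraries (10014) were tested with limma 3.58.1 in R 4.3.3 on log2(FPKM + 1), with a variance trend, over 3 groups of 2 libraries (3 residual degrees of freedom), two-sided, with Benjamini-Hochberg adjustment at 0.05. The fit was repeated after scaling libraries to the same median, since log2 fold changes shift with scale. Named genes were the 12 largest rises and falls that passed on both scales without overlap and with a mean of at least 10 FPKM, the 10 highest gained and lost genes (both sets are listed whole), up to 4 members per list by p as deposited, and a panel of 15 genes. Some genes that the rule names are not reported here. Any other gene is marked in the text as picked from its values. The comparison, the 42 lists and the panel were chosen with earlier results of these data known. In 5 simulated runs with 200 of 10014 genes changed in the comparison of LPS plus Sal-B with control, 91.6% of 2-fold and 100.0% of 4-fold changes were recovered, and 4.923% of calls were false. Changes were placed only in genes with a mean log2(FPKM + 1) above 3, and all genes of a group had the same spread. In the data 72.8% of genes were called as deposited. These rates therefore need not hold for the data, for low genes or for genes whose control libraries disagree. Alternatives were other scalings, pseudocounts and filters, a replicate block, fewer libraries, averaged treated pairs and each library left out.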

Additional observations from a re-analysis of the deposited data

How the results depend on the processing

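Genes higher in LPS plus Sal-B than in control cells numbered 1399 as deposited, 3179 at the same median, 2933 after quantile normalization and 578 with each treated pair averaged to 1 sample. Genes lower numbered 5890 as deposited, 3207 at the same median, 3241 after quantile normalization, 3853 with the filter at 5 FPKM (which tests fewer genes) and 3435 with averaged pairs (which leaves 1 residual degree of freedom). Leaving out each library in turn gave 965 to 1749 genes higher and 4759 to 6361 lower, with the lone library of a group assumed to vary like the other groups. At the same median, in alternatives added after seeing the data, the counts were 3579 higher and 3473 lower without control replicate 2, and 3484 higher and 3573 lower without control replicate 3. Gained genes ranged from 13 to 21 and lost genes from 12 to 27 over the libraries left out, and lost genes were 6 both at the same median and after quantile normalization. The treated contrast called 4238 genes as deposited and 3790 at the same median. Of the 177 genes named, Cd14 changed sign with the control library left out (0.51 without replicate 2, −0.0376 without replicate 3), as did Ly96 (−0.106 without replicate 2, 0.19 without replicate 3), and averaged pairs ended the call of 10. Why these results moved was not tested, and depth, which the table does not give, limits genes near 1 FPKM.

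The replicate numbers are shared by the groups but did not pair the libraries: correlations of deviations from the group means between same-numbered libraries were 0.0037, 0.0139 and 0.0348, and there are only 2 numbers. With a replicate block 1357 genes were higher and 5838 lower, and the block changed no call among the 177 genes named.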
